A study of Homo sapiens with 12 samples.

Results

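The genes described are the MYC network: the transcription factor MYC, its partner MAX, the related factors MNT, MXD1, MXD3, MXD4, MXI1, MGA and MLX, and PVT1, the long noncoding RNA gene next to MYC. They were chosen by name and matched by Ensembl identifier, and 10 of 10 were found among the 58051 genes of the count tables. All 10 passed the filter on low counts that left 27915 genes to test. RNA was sequenced from HCT116 cells, a human colon carcinoma line, in 12 libraries that form 6 groups of 2. The cells received 1 of 3 siRNAs, short duplexes that direct the cleavage of a matching mRNA. siControl served as the control, siPFDN2 was directed against PFDN2 and siPFDN5 against PFDN5, which encode subunits of prefoldin, a chaperone that hands newly made actin and tubulin to the folding machinery. All groups, the controls included, were starved of serum for 48 h from 24 h after the siRNA was added. For each siRNA, 1 group was sampled before serum was given back and 1 group 90 min after. Each target was hit with a single siRNA sequence in a single cell line. The labels number 2 replicates per group without saying whether they were separate cultures, so p-values measure only the spread between these samples.

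MYC and its relatives are basic helix-loop-helix leucine zipper proteins. MYC binds DNA as a dimer with MAX, at the E-box CACGTG and its variants, and raises transcription of genes for growth, nucleotide synthesis and ribosome assembly. MNT, the MXD proteins and MGA also pair with MAX and are known mainly as repressors at the same sites, and MLX is the partner of the sugar-sensing factors MLXIP and MLXIPL and of some MXD proteins. MYC is a classic immediate early gene of the serum response, with a short-lived mRNA and protein. PFDN5 is also known as MM-1, a protein that binds MYC and was described as a modulator of its activity, which links this network to the knockdown.

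The siRNAs define the groups, so their sequences are printed as the labels give them, in RNA letters, 5′ to 3′, in lower case with no part marked. Each has 19 bases.
siControl: cguacgcggaauacuucga
siPFDN2: cagccuagugaucgauaca
siPFDN5: agagaagacagcugaggau

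An E-box is the letter sequence through which MYC and MAX read a promoter, so the promoters of the network itself were searched for CACGTG, which reads the same on both strands. RefSeq promoters of build GRCh38.p14, from 250 bases before to 50 bases after a start, were available for 8 of the 10 genes, with 13 promoters in all. The motif stood in 3 of these 13 promoters, those of MXD4, MNT and MLX, and in 2548 of 35116 promoters over all genes (7.26%). The stretches around it are shown because they place the 3 genes beside the network's own recognition site, with the motif in capitals and each read on the gene's strand.
MXD4: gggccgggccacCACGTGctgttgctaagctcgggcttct
MNT: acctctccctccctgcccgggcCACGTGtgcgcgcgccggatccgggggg
MLX: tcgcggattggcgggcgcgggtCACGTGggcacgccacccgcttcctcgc
The MXD4 stretch is chr4:2262320-2262359 on the minus strand, with the motif starting 238 bases upstream of the start. The MNT stretch is chr17:2401226-2401275 on the minus strand, with the motif 193 bases upstream. The MLX stretch is chr17:42567028-42567077 on the plus strand, with the motif 50 bases upstream. The related hexamer CACGCG, searched on both strands, stood in the promoters of MGA, MXD3 and MXI1 and in 11.4% of all promoters. A letter match describes a promoter and is not evidence of binding.

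Fragments assigned to gene bodies ranged from 59784425 to 136504590 per library. Levels are given below as CPM, a count scaled to the library's TMM-adjusted total, and a gene was called changed at an adjusted p under 0.05. PFDN2 stood at 11.5 and 11.2 CPM in siControl cells and 7.55 and 8.49 in siPFDN2 cells before serum, and at 19.5 and 16.3 against 8.73 and 9.47 after serum. PFDN5 stood at 76.8 and 68.9 CPM in siControl cells and 41.0 and 44.2 in siPFDN5 cells before serum. After serum it stood at 67.9 and 74.0 against 67.5 and 68.6, with overlap. On exon counts PFDN5 was then at 87.3 and 90.1 CPM against 78.0 and 79.6. On transcript estimates it was at 105 and 109 against 96.9 and 100. Those 2 differences, log2 -0.17 and -0.12 (adjusted p 0.51 and 0.63), were not called. PFDN5 mRNA was thus at most slightly lower in the libraries labelled siPFDN5 after serum, and every comparison with them carries that limit. Neither target was called in its own knockdown against siControl (adjusted p 0.44 and 0.77 for PFDN2 and 0.10 and 0.83 for PFDN5, before and after serum), while DESeq2 called PFDN5 before serum (adjusted p 0.00019) and PFDN2 after (adjusted p 0.0038). PFDN2 stood higher in siPFDN5 cells, at 21.8 and 21.1 CPM before serum and 23.1 and 28.7 after. That difference from siControl was 0.92 before serum (adjusted p 0.10) and 0.53 after (adjusted p 0.11), both called by DESeq2 (adjusted p 0.00026 and 0.030). Against siPFDN2 cells PFDN2 was called as higher in siPFDN5 at both times (1.42 and 1.51, adjusted p 0.021 and 0.040). Replicate 2 of siPFDN2 before serum stood apart from its partner and from the other 4 libraries before serum in several members, such as MNT, MXD4 and MXI1. Without it, PFDN5 before serum (adjusted p 0.00085) and PFDN2 after serum (adjusted p 0.0066) were called. Epithelial markers were at 1 CPM or more for 8 of 8 genes, with a summed level of 1974 to 3178 CPM, while 0 of 5 leukocyte markers reached 1 CPM. Endothelial markers summed to 1.29 to 2.37 CPM and fibroblast markers to 4.20 to 16.2 CPM, with 1 gene of each list reaching 1 CPM. At these low levels CDH5 and COL3A1 of those lists rose in the averaged serum response, and their part in the members' results was not tested. In these bulk samples, fewer expressing cells and less RNA per cell cannot be told apart.

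MYC was the most abundant member per length. Its exon level was 91.7 ± 20.5 CPM per kilobase (SD over 12 libraries), with a range of 66.8 to 118. MXD3 and MXI1 followed at 14.4 ± 2.17 and 11.9 ± 2.13, then MLX at 9.26 ± 1.62. MAX, PVT1 and MGA lay close together at 6.99 ± 0.580, 6.78 ± 0.577 and 6.42 ± 1.30, and these 3 did not differ beyond their spread. The repressors MXD4, MXD1 and MNT were lowest, at 4.49 ± 1.17, 2.56 ± 0.770 and 1.97 ± 0.875 CPM per kilobase. MYC did not overlap with any other member, and below it the ranges of neighbours in this order overlapped. MXD3 overlaps PRELID1, which is transcribed from the opposite strand and was counted without strand, so its place in the order is uncertain.

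**Figure D1:**
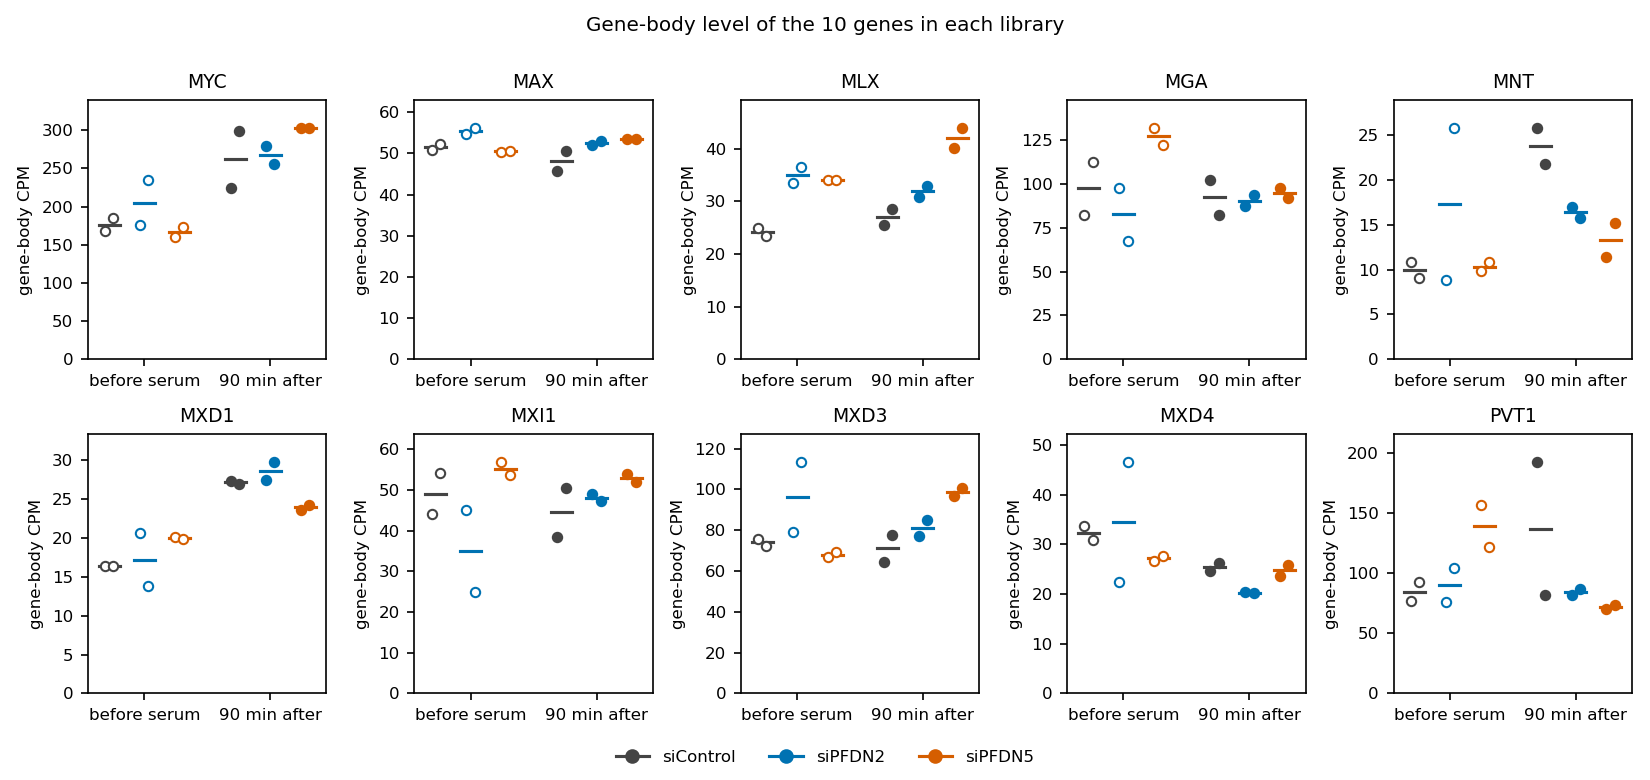
Gene-body CPM of each of the 10 members in every library, by siRNA, with open points before serum, filled points after serum and a bar at each group mean. MYC lies at 160 to 235 CPM before serum and 225 to 303 after, and MXD1 is the member whose 6 libraries after serum all lie above the 6 before.

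The serum comparison asks which members moved within 90 min of serum. Averaged over the 3 siRNAs, 2 of 10 members rose and none fell, with 14.9% of all genes tested called, and MYC and MXD1 were the 2. Thus both the activator and 1 of the MAX-binding repressors rose. At an unadjusted p under 0.05 the count was 4, beside 9115 of all 27915 genes tested. DESeq2 called 3, adding MXD4 as lower, beside 5056 of all genes. The members' median log2 difference was 0.08, beside -0.03 over all genes. In siControl cells alone 0 of 10 members were called (2.87% of all genes), with 3 at an unadjusted p under 0.05 and 2 by DESeq2. Over all genes those 2 measures gave 3449 and 1204. In siPFDN2 cells 1 member was called (3.26% of all genes), MXD1, and in cells labelled siPFDN5 1 member was called (12.2% of all genes), MYC. Without replicate 2 of siPFDN2 before serum, 27.5% of all genes and 5 of 10 members were called in the average, with MNT and MXD3 added as higher and MXD4 as lower. Exon counts and transcript estimates also called MYC and MXD1 in the average (11% of all genes in the first and 9.37% in the second). Either of them called MXD1 in siControl cells (2.13% and 1.95%) and siPFDN2 cells (2.53% and 2.37%), and MYC in cells labelled siPFDN5 (4.22% and 4.35%). A further fit removed each library's trend of counts with GC content. It called MYC, MNT and MXD1 as higher in siControl cells (6.39% of all genes) and MYC and MXD1 in siPFDN2 cells (7.05%). In cells labelled siPFDN5 that fit called 6 members (28.9%), with MYC, MXD1, MXD3 and MLX as higher and MGA and PVT1 as lower. In the average it called 5 (28.4%), with MXD4 as the lower one. In the individual members' serum comparisons that did not reach an unadjusted p of 0.05, log2 differences ran from -0.42 to 0.69 (26 values, adjusted p 0.19 to 0.97), and 17 of them changed sign in at least 1 alternative.

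**Figure D2:**
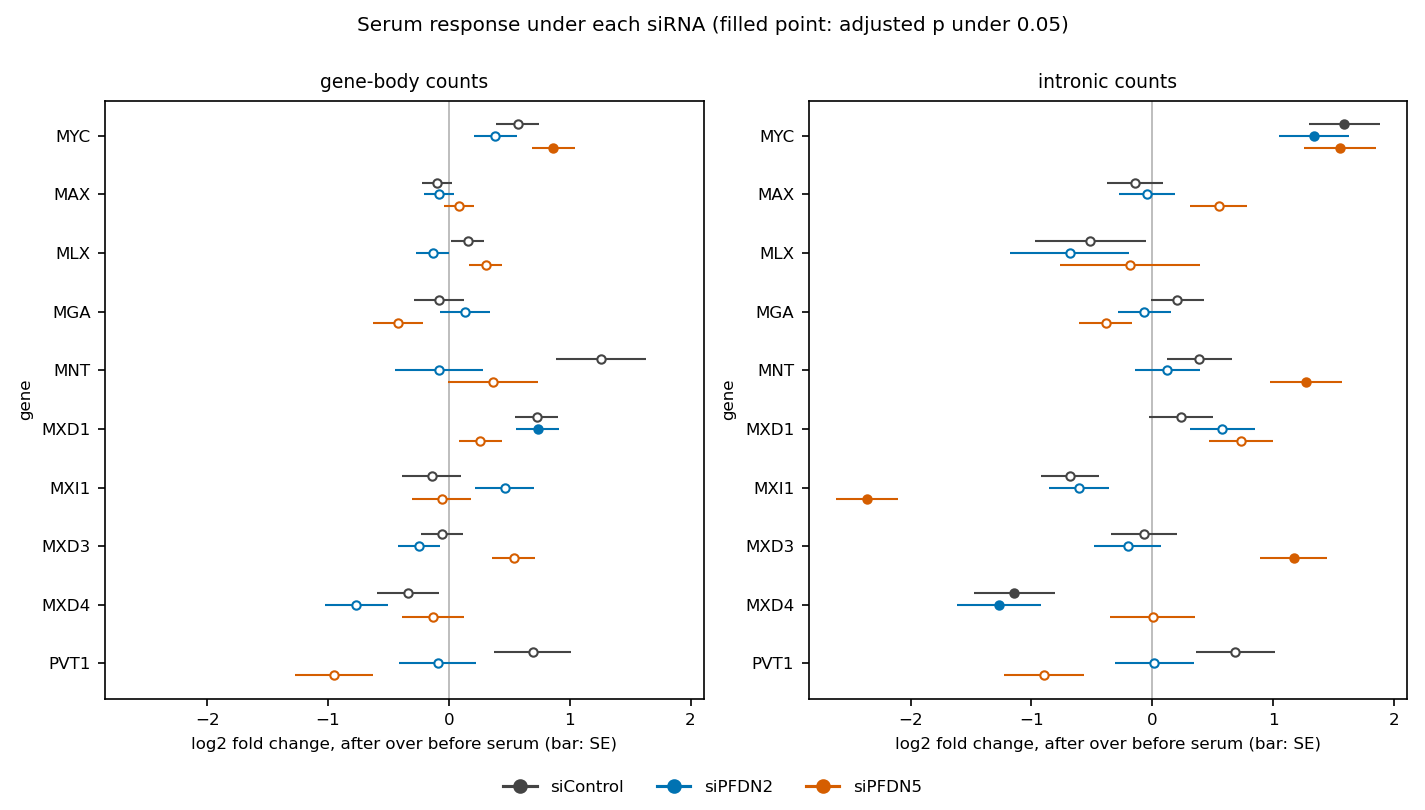
Log2 difference after against before serum for each member in each siRNA, with its standard error, on gene-body counts and on intronic counts. Filled points mark an adjusted p under 0.05. On gene bodies MYC and MXD1 lie above 0 in each siRNA, with MYC filled only in siPFDN5 and MXD1 only in siPFDN2. PVT1 and MNT differ there in sign between siRNAs.

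MYC (chromosome 8, 127735434 to 127741434, plus strand, GRCh38) overlaps no other annotated gene. In siControl cells its level was 168 and 185 CPM before serum and 225 and 299 after. In siPFDN2 cells it was 175 and 235 before and 279 and 256 after, and in cells labelled siPFDN5 160 and 173 before and 302 and 303 after. The 2 libraries after serum lay above the 2 before in each siRNA, as they did for 23.3%, 26.2% and 36.8% of all genes in siControl, siPFDN2 and siPFDN5. The averaged rise was 1.52-fold (log2 0.61 ± 0.10 SE, adjusted p 0.0029 in edgeR's quasi-likelihood test), and it was called in all 25 alternatives run, at log2 0.46 to 0.68. By siRNA the log2 rise was 0.57 ± 0.18 in siControl cells (adjusted p 0.15), 0.38 ± 0.18 in siPFDN2 cells (adjusted p 0.19) and 0.86 ± 0.18 in cells labelled siPFDN5 (adjusted p 0.017). The last call was lost when any 1 of the 4 siPFDN5 libraries was left out, at log2 0.81 to 0.93 and adjusted p 0.085 to 0.16. MYC was called in all 3 siRNAs, at log2 0.57, 0.61 and 0.87, when replicate 2 of siPFDN2 before serum was left out (9.95%, 4% and 36.3% of all genes).

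Fragments in introns come largely from RNA that is not yet spliced. MYC's intronic level, taken as gene-body minus exon counts, was 10.0 and 16.2 CPM before serum and 28.1 and 51.0 after in siControl cells. In siPFDN2 cells it was 16.5 and 17.8 before and 48.7 and 38.3 after, and in cells labelled siPFDN5 15.4 and 14.7 before and 50.03 and 38.7 after. All 6 libraries after serum lay above all 6 before, which held for 1 of 10 members and for 5.4% of all genes tested on introns. The log2 rise was 1.59 ± 0.29 in siControl cells, 1.34 ± 0.29 in siPFDN2 cells and 1.55 ± 0.30 in cells labelled siPFDN5 (adjusted p 0.0020, 0.0070 and 0.0023), and 1.49 ± 0.17 on average (adjusted p 5.7e-06). The siControl call was lost without replicate 1 of siControl before serum (log2 1.29, adjusted p 0.067). The siPFDN2 call was lost without replicate 2 of siPFDN2 before serum (1.39, adjusted p 0.057) or replicate 1 after (1.16, adjusted p 0.081), and with library-size scaling (0.63, adjusted p 0.12). Introns made up 1.13% to 3.15% of MYC's fragments, so the mature mRNA dominated the gene-body count. The intronic rise was the larger of the 2 in log2 units, and the difference between them was not tested.

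The transcript estimates divided MYC among 7 annotated transcripts. The summed share of MYC-202 and MYC-207, which received equal estimates, was 1.16% to 8.87% of MYC before serum and 9.33% to 17.9% after. The step from 8.87% to 9.33% was narrower than the span within siControl after serum, at 17.9% and 9.40%. How many other transcripts separate in this way was not counted. The share of MYC-206 was 35.7% to 50.3% before and 24.0% to 37.5% after, and that of MYC-205 ran from 40.1% to 57.3% over the 12 libraries. These shares come from an estimate that splits fragments among overlapping isoforms and were given no test.

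MAX, the shared partner of the network, varied little. It ran from 45.7 CPM in replicate 1 of siControl after serum to 56.2 in replicate 2 of siPFDN2 before, and the 2 siPFDN2 libraries before serum were the highest of the 12. MAX stood at 50.8 and 52.3 CPM before serum and 45.7 and 50.7 after in siControl cells. In siPFDN2 cells it stood at 54.6 and 56.2 before and 52.0 and 52.9 after. In cells labelled siPFDN5 it stood at 50.4 and 50.5 before and 53.5 and 53.5 after, so all shifts were small. MAX was called in none of the 12 comparisons. Between 45.5% and 57.7% of its fragments lay outside its exons, in a span where FNTB is transcribed from the opposite strand.

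MLX, which pairs with MLXIP and MLXIPL, stood at 25.0 and 23.4 CPM in siControl cells, 33.4 and 36.5 in siPFDN2 cells and 34.0 and 34.0 in siPFDN5 cells before serum. After serum it stood at 25.4 and 28.4, 30.7 and 33.0, and 40.2 and 43.9 CPM in the same order. Both prefoldin siRNA groups lay above siControl with no overlap at both times, as did 15.8% and 22.5% of all genes for siPFDN2 and 32.9% and 30.6% for siPFDN5, before and after serum. The log2 difference of siPFDN5 from siControl was 0.49 before serum (adjusted p 0.23) and 0.64 ± 0.13 after (adjusted p 0.073), and that of siPFDN2 was 0.53 before serum (adjusted p 0.44), so none was called. With the GC trend removed, MLX was called for siPFDN5 against siControl before serum (0.53, adjusted p 0.030, 0.681% of all genes) and after (0.65, adjusted p 0.0078, 13.2% of all genes). Leaving out replicate 2 of siPFDN2 before serum also gave calls at both times (adjusted p 0.0097 and 0.00051), and DESeq2 called it after serum (adjusted p 0.0014).

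MGA, a very large protein that joins MAX in a repressive Polycomb complex, had 82.4 and 113 CPM in siControl cells, 98.0 and 67.4 in siPFDN2 cells and 132 and 123 in siPFDN5 cells before serum. After serum all 6 libraries lay between 82.4 and 103 CPM. The 2 siPFDN5 libraries before serum were thus the highest of the 12, at a log2 difference of 0.62 from siPFDN2 (adjusted p 0.090), which was not called. DESeq2 called this MGA difference (adjusted p 0.040).

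MXD1, also known as MAD1 and a repressor that pairs with MAX in differentiating cells, was the member with the clearest separation. In siControl cells MXD1 was at 16.4 and 16.4 CPM before serum and 27.3 and 27.0 after. In siPFDN2 cells it stood at 20.6 and 13.8 before and 27.5 and 29.8 after, and in cells labelled siPFDN5 at 20.1 and 19.9 before and 23.6 and 24.3 after. All 6 libraries after serum lay above all 6 before, as for 4.61% of all genes tested on gene bodies. The averaged log2 rise was 0.57 ± 0.10 (adjusted p 0.0040) and was called in all 25 alternatives, at 0.44 to 1.27. By siRNA it was 0.73 ± 0.18 in siControl cells (adjusted p 0.058), 0.74 ± 0.18 in siPFDN2 cells (adjusted p 0.0499) and 0.26 in cells labelled siPFDN5 (adjusted p 0.34). The siPFDN2 call sat at the threshold. It was lost when any 1 of the 10 libraries other than the 2 of siPFDN2 before serum was left out (adjusted p 0.076 to 0.32).

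How MXD1 was counted moved its averaged rise by more than the other alternatives did. The upstream part of the counted gene overlaps SNRNP27 on the same strand, whose fragments were counted for both genes. The RefSeq start of MXD1 lies 17421 bases from the counted gene start. Transcript estimates, which assign fragments to transcripts, gave 5.59 and 5.74 CPM before serum and 19.4 and 15.7 after in siControl cells. In siPFDN2 cells they gave 5.59 and 4.89 before and 15.3 and 16.96 after, and in cells labelled siPFDN5 8.49 and 8.20 before and 11.3 and 13.3 after. The MXD1 log2 rise was then 1.63 in siControl cells (adjusted p 0.00033), 1.62 in siPFDN2 cells (adjusted p 0.00038), 0.56 in cells labelled siPFDN5 (adjusted p 0.072) and 1.27 on average (adjusted p 1.1e-05). Exon counts gave values in between, at 1.03, 0.95, 0.28 and 0.75. The MXD1 rise in cells labelled siPFDN5 was the smallest of the 3 on gene bodies, exons and transcript estimates. On introns the order was the other way. SNRNP27 fragments in the shared stretch outside MXD1's exons also enter this intronic count, and their part was not tested. Intronic MXD1 was at 42.6 and 39.3 CPM before serum and 39.3 and 57.2 after in siControl cells, a log2 difference of 0.24 (adjusted p 0.67). It was at 51.8 and 30.0 before and 57.9 and 64.2 after in siPFDN2 cells (0.58, adjusted p 0.16), and at 40.0 and 41.8 before and 68.0 and 68.1 after in cells labelled siPFDN5 (0.73, adjusted p 0.0504), none of them called. The intronic difference between siPFDN5 and siControl was 0.50 ± 0.38 (adjusted p 0.38) and was not called. The difference between siPFDN5 and siControl was also not called on gene bodies, and it was called without replicate 2 of siPFDN2 before serum (log2 -0.46, adjusted p 0.016).

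**Figure D3:**
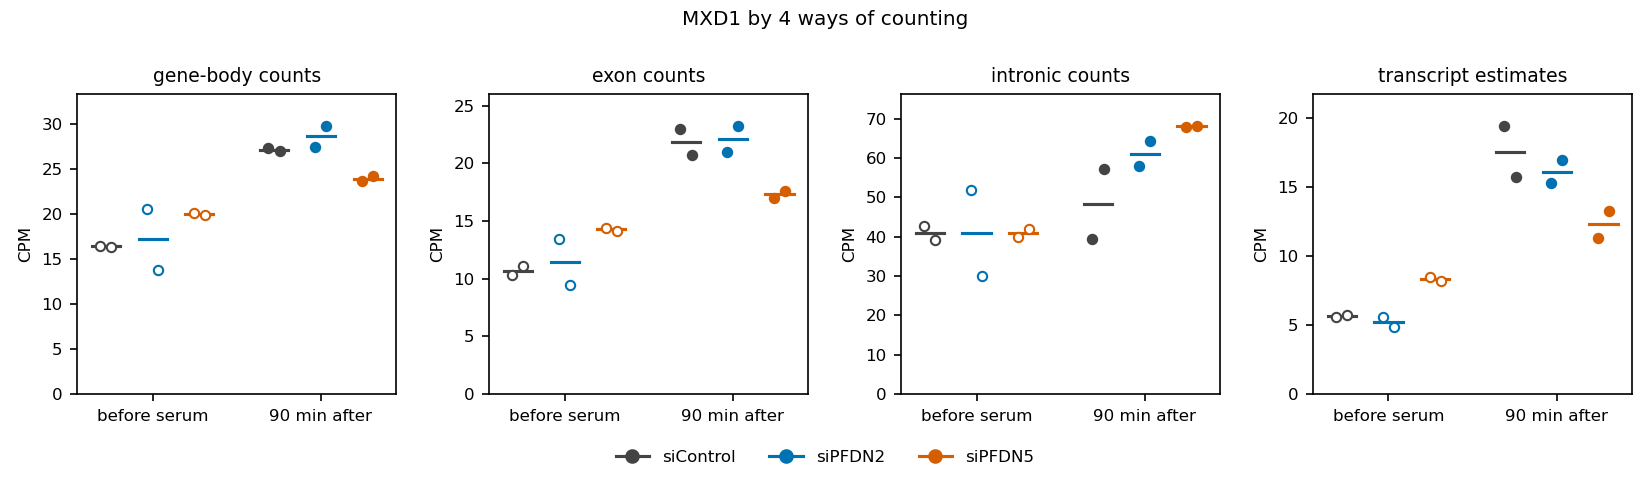
MXD1 level in CPM in every library by gene-body counts, exon counts, intronic counts and transcript estimates. Open points are before serum, filled points after serum, and a bar marks each group mean. The transcript estimates lie at 4.89 to 8.49 CPM before serum and 11.3 to 19.4 after, below the gene-body counts of 13.8 to 20.6 and 23.6 to 29.8.

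MNT, a repressor that competes with MYC for MAX, was the member on which a single library bore most. In siControl cells MNT was at 10.8 and 9.10 CPM before serum and 25.8 and 21.8 after. In siPFDN2 cells it stood at 8.81 and 25.8 before and 16.98 and 15.8 after, and in cells labelled siPFDN5 at 9.87 and 10.8 before and 11.5 and 15.2 after. Of the 6 libraries before serum, 5 lay at 8.81 to 10.8 CPM and replicate 2 of siPFDN2 lay at 25.8. The log2 rise in siControl cells was 1.26 ± 0.37 and was not called (adjusted p 0.13), while DESeq2 called it (adjusted p 0.015), as did the fit with the GC trend removed (1.35, adjusted p 0.0047). Without replicate 2 of siPFDN2 before serum, MNT was called in siControl cells (1.25, adjusted p 5.9e-05), in siPFDN2 cells (0.89, adjusted p 0.011, from -0.08 with it) and on average (0.84, adjusted p 1.7e-05). After serum, siPFDN5 lay below siControl with no overlap (32.7% of all genes), at a log2 difference of -0.84 (adjusted p 0.22), which became -0.85 with the GC trend removed (adjusted p 0.037).

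MXD4, a MAX-binding repressor, was at 33.6 and 30.8 CPM before serum and 24.6 and 26.3 after in siControl cells. In siPFDN2 cells it stood at 22.5 and 46.5 before and 20.4 and 20.2 after, and in cells labelled siPFDN5 at 26.7 and 27.6 before and 23.7 and 25.9 after. The MXD4 log2 difference in siPFDN2 cells was -0.77 and was not called, while DESeq2 called it (adjusted p 0.041). Each siRNA's libraries after serum lay below its libraries before (22.4%, 27.7% and 38.9% of all genes in siControl, siPFDN2 and siPFDN5), and replicate 2 of siPFDN2 before serum was again the highest of the 12. The averaged log2 difference was -0.41 (adjusted p 0.084), was not called, and became -0.21 without that library (adjusted p 0.011). On introns MXD4 fell by 1.14 ± 0.34 on the log2 scale in siControl cells (adjusted p 0.043) and by 1.27 ± 0.35 in siPFDN2 cells (adjusted p 0.026), with 0.00 in cells labelled siPFDN5, and by 0.80 ± 0.20 on average (adjusted p 0.0063). The siControl call was lost when either replicate 1 of siControl was left out (log2 -0.83 and -0.76, adjusted p 0.41 and 0.36). It was also lost, at adjusted p 0.053 to 0.057, without any 1 of the 4 siPFDN5 libraries or the 2 siPFDN2 libraries after serum. The siPFDN2 call was lost without replicate 2 before serum (log2 -0.72, adjusted p 0.35), replicate 1 after (-1.49, adjusted p 0.082) or replicate 2 after (-1.05, adjusted p 0.26).

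MXI1, also known as MXD2 and another MAX-binding repressor, did not separate by serum on gene bodies, at 24.9 to 56.9 CPM over the 12 libraries. The lowest value was again replicate 2 of siPFDN2 before serum. Its intronic level set the siPFDN5 libraries before serum apart, at 33.6 and 30.3 CPM against 9.52 to 16.1 in the other 4 libraries before serum and 6.02 to 11.2 after. Introns made up 13.02% and 11.7% of MXI1 fragments in those 2 libraries. AL360182.2, on the opposite strand within MXI1's span, held 1091 gene-body fragments over the 12 libraries. Any of them outside MXI1's exons also enter MXI1's intronic count, and their part was not tested. In cells labelled siPFDN5 intronic MXI1 fell by 2.36 ± 0.26 on the log2 scale after serum (adjusted p 2.6e-05) and on average it fell by 1.22 ± 0.14 (adjusted p 8.6e-06), both in all 15 alternatives run. Before serum, intronic MXI1 lay above siPFDN2 by 1.52 ± 0.24 (adjusted p 0.0053), a call lost without replicate 2 of siPFDN2 (1.32, adjusted p 0.079) or replicate 1 of siPFDN5 (1.45, adjusted p 0.090). It lay above siControl by 1.09 (adjusted p 0.053), which was not called. Over all genes the intronic share was likewise highest in the 2 siPFDN5 libraries before serum, at 22.8% and 25.9%, with 14.8% to 20.9% in the other 10, and the part of that share in the MXI1 result was not tested.

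MXD3, a repressor reported in proliferating cells, stood at 66.8 and 69.2 CPM in siPFDN5 cells before serum and 96.6 and 101 in the libraries labelled siPFDN5 after serum. In siControl cells it stood at 75.9 and 72.2 before and 64.6 and 77.7 after, and in siPFDN2 cells at 79.1 and 113 before and 76.9 and 85.2 after. The siPFDN5 libraries lay higher after serum with no overlap, as did the share of all genes given above for MYC in siPFDN5. The siControl and siPFDN2 libraries overlapped. The MXD3 log2 rise in cells labelled siPFDN5 was 0.54 (adjusted p 0.070) and was not called. With the GC trend removed it was called (0.48, adjusted p 0.0063), and the same serum rise was called without replicate 2 of siPFDN2 before serum (0.54, adjusted p 0.00078). After serum, MXD3 lay above siControl in the libraries labelled siPFDN5 by 0.47 (adjusted p 0.16), a difference that turned to -0.019 with transcript estimates. Transcript estimates put MXD3 at 7.36 to 17.5 CPM, far below its 61.7 to 99.7 CPM in exon counts, while PRELID1, which overlaps it on the opposite strand, stood at 72.7 to 117. Fragments of MXD3 and PRELID1 in the shared stretch cannot be told apart in the count tables.

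In the serum comparisons intronic counts called more of the members than gene bodies did, and they also called a larger share of all genes. They called 2 of 10 members in siControl cells (8.63% of 19731 genes), 2 in siPFDN2 cells (11.8%), 4 in cells labelled siPFDN5 (27.8%) and 5 on average (29.3%). In siControl and siPFDN2 cells the 2 were MYC as higher and MXD4 as lower. In cells labelled siPFDN5 they were MYC, MNT and MXD3 as higher and MXI1 as lower. The averaged calls were MYC, MNT and MXD1 as higher, with MXD4 and MXI1 as lower. PRELID1 fragments outside MXD3's exons also enter the intronic count of MXD3, and SNRNP27 fragments outside MXD1's exons that of MXD1. The same holds for AL360182.2 in MXI1 and AC006435.1 in MNT, each on the opposite strand. In cells labelled siPFDN5 PRELID1 itself stood at 58.7 and 61.5 gene-body CPM before serum and 88.6 and 91.9 after. The part of these overlapping genes in the intronic results was not tested. Intronic MNT rose by 1.27 ± 0.30 in cells labelled siPFDN5 (adjusted p 0.0071), lost without replicate 1 of siPFDN5 before serum (1.32, adjusted p 0.063), replicate 2 before (1.22, adjusted p 0.052) or replicate 1 after (1.18, adjusted p 0.067). Intronic MXD3 rose there by 1.17 ± 0.28 (adjusted p 0.0076), lost without replicate 1 of siPFDN5 before serum (1.09, adjusted p 0.097), replicate 1 after (1.16, adjusted p 0.063) or replicate 2 after (1.17, adjusted p 0.057). The averaged intronic rise of MXD1, 0.52 (adjusted p 0.019), was lost without any 1 of 5 libraries (adjusted p 0.052 to 0.063): replicate 1 of siPFDN5 before serum, replicate 2 of siControl before serum, replicate 2 of siPFDN2 after serum and both of siPFDN5 after serum. With library-size scaling in place of TMM, the averaged intronic rises of MNT (0.22) and MXD1 (0.17) were not called.

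**Figure D4:**
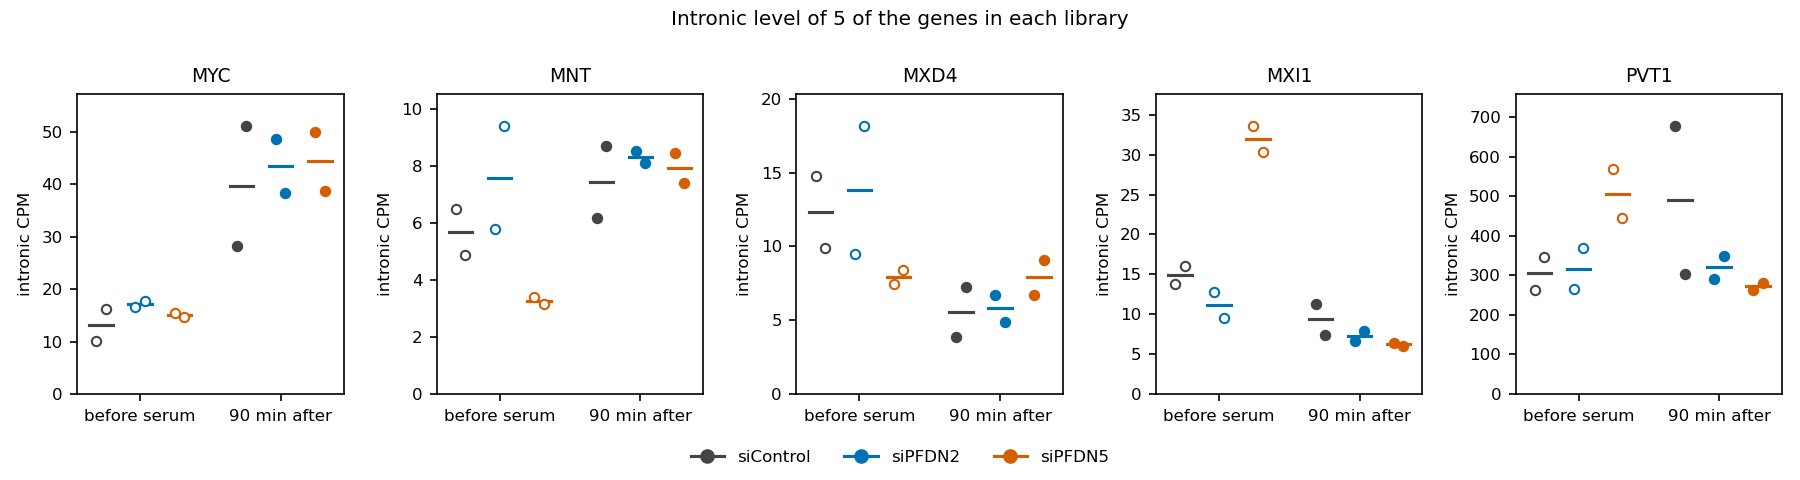
Intronic CPM of MYC, MNT, MXD4, MXI1 and PVT1 in every library, with open points before serum, filled points after serum and a bar at each group mean. MYC lies at 10.0 to 17.8 CPM before serum and 28.1 to 51.0 after, MXI1 reaches 33.6 and 30.3 in siPFDN5 before serum, and PVT1 reaches 677 in replicate 1 of siControl after serum.

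PVT1 (chromosome 8, 127794533 to 128101253, plus strand) is the host gene of several microRNAs and lies beside MYC. Its gene-body level was 76.7 and 93.1 CPM in siControl cells, 76.4 and 105 in siPFDN2 cells and 157 and 122 in siPFDN5 cells before serum. After serum it was 193 and 82.0, 82.4 and 87.3, and 70.5 and 74.1 CPM in the same order. Replicate 1 of siControl after serum was the highest of the 12, far above its partner, and the siPFDN5 libraries went from above to below the other groups. Exon counts of PVT1 ran only from 33.0 to 42.5 CPM, so most of the spread lay in introns, which held 49.0% to 84.5% of its fragments, with the highest share in replicate 1 of siControl after serum. The log2 difference with serum in cells labelled siPFDN5 was -0.95 (adjusted p 0.074) and was not called, and with the GC trend removed it was -0.98 (adjusted p 0.042). On exon counts the PVT1 difference turned to 0.090, the other direction, and the difference of siPFDN5 from siControl after serum turned from -0.93 to 0.18. PVT1 did not follow MYC over the 12 libraries, at a Pearson correlation of -0.40 of their log2 levels, which is given as a description.

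The knockdown comparison asks whether the members differed between cells given a prefoldin siRNA and siControl cells. The target mRNAs were only partly lower, and PFDN5 after serum at most slightly, so it does not show what loss of a subunit does. None of the 10 members was called for siPFDN2 against siControl before serum (0% of all genes, 1 member at an unadjusted p under 0.05, 0 by DESeq2) or after serum (0%, 0 and 0). Over all 27915 genes tested, the last 2 measures gave 3156 and 27 before serum and 1747 and 2 after. For siPFDN5 against siControl none was called before serum (0.00716% of all genes, 2 and 0) or after serum (0.00358%, 4 and 2). Over all genes the same measures gave 3432 and 328 before serum and 6032 and 1944 after. The 2 members before serum were MLX (0.49) and PVT1 (0.72). The MYC log2 difference from siControl was 0.22 and 0.03 for siPFDN2 and -0.08 and 0.21 for siPFDN5, before and after serum. Each of these MYC differences had a standard error of 0.18 and none was called, which does not show that MYC was unchanged. Between siPFDN5 and siPFDN2 none of the members was called before serum (0.0788% of all genes, 3 and 1) or after serum (0.0179%, 1 and 0), with MYC at -0.30 and 0.18. Over all genes the unadjusted p and DESeq2 gave 8092 and 3870 before serum and 2212 and 116 after. The 3 members before serum were MXD3 (-0.50), MXI1 (0.66) and MGA (0.62), and the 1 after was MLX (0.40). Without replicate 2 of siPFDN2 before serum, MLX was called as higher in siPFDN5 than in siControl before serum (6.96% of all genes). After serum, MLX (0.65) and MXD3 (0.47) were then called as higher and MNT (-0.83) as lower (23.9% of all genes), and MYC was in neither set. On introns, 1 of 10 members was called for siPFDN5 against siControl after serum (3.8% of genes), MXD3 at 1.10 (adjusted p 0.046), a call kept only without either siPFDN2 library before serum or replicate 2 of siControl after serum and otherwise lost on leaving out 1 library (adjusted p 0.075 to 0.38). Library-size scaling (0.53, adjusted p 0.21) and the replicate block (1.13, adjusted p 0.052) also ended this MXD3 call. PRELID1 fragments outside MXD3's exons enter this count, and their part was not tested. On introns before serum, siPFDN5 against siPFDN2 called 2 (16% of genes), MXI1 as higher and MNT as lower. Intronic MNT was lower by -1.22 ± 0.29 (adjusted p 0.017), lost without replicate 2 of siPFDN2 (-0.82, adjusted p 0.16), replicate 1 of siPFDN5 (-1.26, adjusted p 0.17) or replicate 2 of siPFDN5 (-1.16, adjusted p 0.087), and with the GC trend removed (-0.64, adjusted p 0.067).

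**Figure D5:**
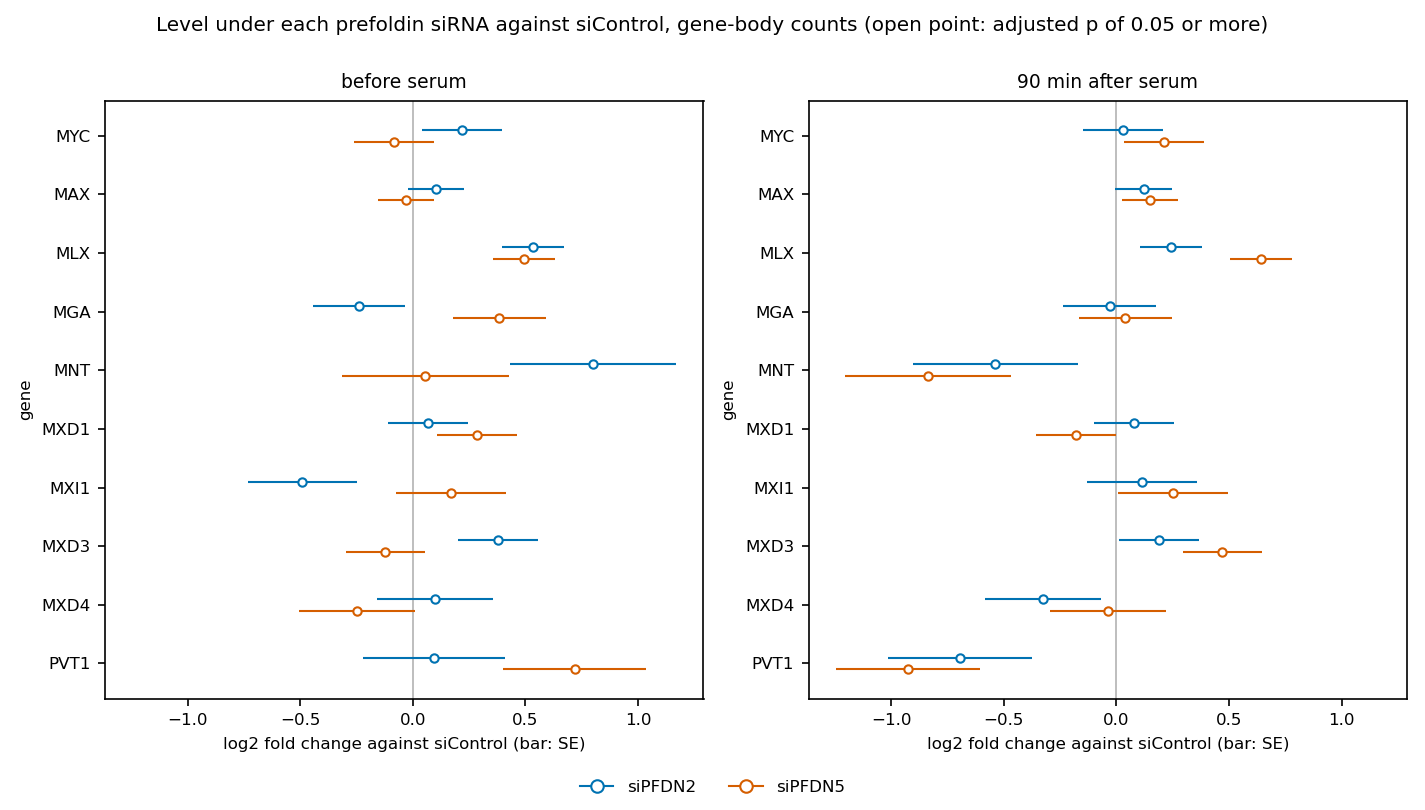
Log2 difference on gene-body counts of each prefoldin siRNA from siControl for each member, before and after serum, with its standard error, where filled points mark an adjusted p under 0.05 and none is filled. MYC lies between -0.08 and 0.22, MLX lies above 0 in each comparison, and PVT1 changes sign between the siPFDN5 comparisons before and after serum.

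Whether the serum response itself differed between siRNAs was tested as the difference of the responses. On gene bodies none of the 10 members was called for siPFDN2 minus siControl (0% of all genes, 1 member at an unadjusted p under 0.05, 0 by DESeq2) or siPFDN5 minus siControl (0%, 2 and 1). Over all genes the last 2 measures gave 1841 and 2 for siPFDN2 and 5847 and 1764 for siPFDN5. MNT was the 1 member for siPFDN2, at -1.34, and MXD3 (0.59) and PVT1 were the 2 for siPFDN5. The MYC difference was -0.19 ± 0.25 and 0.29 ± 0.25. PVT1 had the difference farthest from 0 for siPFDN5, at -1.64 (adjusted p 0.0997). Without replicate 2 of siPFDN2 before serum, the siPFDN5 difference was called for MNT (-0.88), MXD1 (-0.46) and MXD3 (0.60), with 21.8% of all genes called. With the GC trend removed none of the members was called for siPFDN5 minus siControl (7.03% of all genes), nor was any for siPFDN5 against siPFDN2 before serum (6.04%). Exon counts and transcript estimates also called none before serum between siPFDN5 and siPFDN2 (0.0442% and 0.0617%), nor did transcript estimates after serum (0.028%). On introns 3 members were called for siPFDN5 minus siControl (12.5% of genes), MXD3, MXI1 and PVT1. Their values and the libraries they depend on are given in the closing observations.

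Much of this dependence was seen on leaving out 1 of the 2 libraries of siPFDN2 before serum. Their disagreement then no longer enters the pooled spread, and the remaining library is assumed to vary like the other groups. The part of that in the changed calls was not tested. The labels do not say which of the 2 is typical. Leaving out replicate 1 instead of replicate 2 gave 4 called members in siControl cells (9.79% of all genes), 5 in siPFDN2 cells (48.6%), 5 in cells labelled siPFDN5 (36%) and 5 in the average (47.3%). MYC and MXD1 were among the averaged calls in both cases, while MYC was then not called in siPFDN2 cells (0.20, adjusted p 0.28). Resting on replicate 2 alone, siPFDN2 differed from siControl before serum in 8 members (41.8% of all genes), MYC among them at 0.40 (adjusted p 0.035), and from siPFDN5 in 7 (47.9%). With replicate 1 alone, no member was called for siPFDN2 against siControl before serum (0.0241%) or for siPFDN5 against siPFDN2 (3.16%). The siPFDN2 minus siControl difference of the serum response then went from 5 called members on replicate 2 alone (37.7%) to none on replicate 1 alone. Calls of siPFDN5 against siControl came out alike whichever of the 2 was dropped, with MLX before serum (6.74% and 6.96%) and MNT, MXD3 and MLX after (23.6% and 23.9%). The smaller serum rise of MXD1 in cells labelled siPFDN5 than in siControl cells also came out alike (log2 -0.45 and -0.46). It was seen on gene bodies and not on introns, where the MXD1 difference had the other sign with all libraries. Neither of the 2 dropped libraries enters these siPFDN5 and siControl comparisons, so both refits compare the same libraries. That they came out alike was thus largely fixed in advance and is no separate support.

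Other genes of the pathway were counted from lists, in the averaged serum response on gene bodies, where 14.9% of all genes were called, 2122 as higher and 2041 as lower. Of 39 genes known to be induced by MYC, 6 rose and 2 fell, with a median log2 difference of 0.15 beside -0.03 over all genes. Among them ODC1, the first enzyme of polyamine synthesis, stood at 230 to 315 CPM before serum and 346 to 484 after (0.63, adjusted p 0.0012), and RRP12, a ribosome export factor, rose by 0.63 (adjusted p 0.0066). CAD, which starts pyrimidine synthesis (-0.48, adjusted p 0.046), and TERT, the catalytic subunit of telomerase (-0.66, adjusted p 0.026), fell. CAD stood at 174 CPM and TERT at 10.8 in replicate 2 of siPFDN2 before serum, the highest of the 12 libraries for both, and each call was lost when any 1 of the siControl or siPFDN5 libraries, or of the siPFDN2 libraries after serum, was left out (adjusted p 0.058 to 0.13 for CAD and 0.054 to 0.085 for TERT). CAD was also not called with exon counts, transcript estimates or the replicate block (adjusted p 0.052 to 0.072). TERT was not called with exon counts (-0.50, adjusted p 0.15) or transcript estimates (-0.39, adjusted p 0.22), and the latter with the GC trend removed gave -0.14 (adjusted p 0.35). With that library left out, 21 of the MYC-induced genes rose and 3 fell, and with the GC trend removed 15 rose and 3 fell.

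By siRNA, 12 of the 39 MYC-induced genes rose and none fell in cells labelled siPFDN5, with a median of 0.42 (12.2% of all genes called in either direction), and 1 rose in siControl cells, RRP12 (2.87%). In siPFDN2 cells none rose and 1 fell, TERT (3.26%). The 3 responses were not tested against each other as lists. Of 6 genes known to be repressed by MYC, 2 rose and 1 fell. GADD45A, a growth arrest and DNA damage gene, stood at 12.1 to 23.3 CPM before serum and 44.1 to 56.9 after (1.53 ± 0.09, adjusted p 9.4e-07). CDKN2B, a CDK4 and CDK6 inhibitor, rose by 0.43 (adjusted p 0.012), lost without replicate 1 of siPFDN5 before serum (0.41, adjusted p 0.058) or after serum (0.43, adjusted p 0.051), and with library-size scaling (0.29, adjusted p 0.052). CDKN1B, which encodes the inhibitor p27, fell by 0.54 on the log2 scale (adjusted p 0.0018). Thus the members of this list did not move one way.

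Of 15 genes that control MYC protein turnover, 2 rose and 1 fell. USP36, a nucleolar deubiquitinase of MYC, rose by 0.71 (adjusted p 0.0027). PIM1, a kinase that stabilises MYC, rose by 0.51 (adjusted p 0.020), and FBXO32, an F-box protein, fell by 0.48 on the log2 scale (adjusted p 0.017). Of 19 MYC cofactors 1 rose, PAF1 of the elongation complex of that name (0.39, adjusted p 0.013), with a list median of -0.08. Leaving out single libraries ended the call of PIM1 in 7 cases (adjusted p 0.051 to 0.068), of FBXO32 in 6 (0.054 to 0.073) and of PAF1 in 4 (0.050 to 0.061), and library-size scaling ended those of PIM1 (0.36) and PAF1 (0.25), while USP36 was called in all 25 alternatives. Replicate 1 of siPFDN5 before serum and replicate 2 of siPFDN2 after serum were among them for each of the 3. Of 3 other tested family members 2 fell, MYCL (-0.52, adjusted p 0.0055) and MLXIPL (-0.81, adjusted p 0.034). The MLXIPL call was lost without any 1 of 9 libraries (adjusted p 0.054 to 0.10), those other than the 2 of siPFDN2 before serum and replicate 2 of siControl before serum, and with exon counts (-0.67, adjusted p 0.093) or transcript estimates (-0.60, adjusted p 0.12). ARRDC4, the tested target of MLXIP, was not called. Of 9 tested genes near MYC on chromosome 8, 2 rose, the noncoding RNA genes CASC19 (1.63, adjusted p 0.00032) and CASC8 (1.21, adjusted p 9.2e-05). None of the genes of these lists was called in the comparisons of siPFDN2 or siPFDN5 with siControl, where 0% to 0.00716% of all genes were called, so this count says nothing particular to the lists.

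Among the 5 genes with a pattern over the 12 libraries most like that of MYC were CAVIN1 (Pearson r 0.974), IBA57 (0.970) and AP003419.1 (0.970), of 12113 genes compared. CAVIN1 encodes a coat protein of caveolae. For PVT1 they were ZFAND3 (0.989), ATP9B (0.988), ADAMTS17 (0.977), LRMDA (0.975) and BTBD9 (0.974). The genes most like PVT1 were 309 to 1129 kilobases long, beside a median of 33.6 and a 90th percentile of 159 over the genes compared. The points share each library's depth and composition, and the correlations describe likeness in these 12 libraries. Among the members, MXD1 and MXD4 ran most nearly opposite, at -0.87.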

How the data were processed

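RNA-seq of 12 libraries was taken from the deposited tables. Per the file headers, the authors counted fragments with both ends mapped using featureCounts on Ensembl release 87 of GRCh38, each fragment counted for every gene it overlapped, with no strand option, as raw counts per gene body and per exon. Per the submitters' processing notes the tools were HISAT2 0.12.2, featureCounts 1.5.2 and kallisto 0.43. The deposited transcript files hold estimated counts, here summed per gene and rounded to whole numbers. 6 columns of each count table matched no sample and were not used.

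Gene-body counts were tested with edgeR 4.0.16 (R 4.3.3, limma 3.58.1): TMM scaling, its default low-count filter, a quasi-likelihood fit with 6 group means over all 12 libraries, 12 two-sided comparisons and Benjamini-Hochberg adjustment over all genes tested. Intronic counts are gene-body minus exon counts. Alternatives were other scalings, no filter, exon counts, transcript estimates, a smooth GC trend removed (lowess, span 0.3), a replicate block, DESeq2 1.42.0 and leaving out each library. Same-numbered libraries deviated together at r over 0.1 in only 4 of 15 pairs of groups (range -0.32 to 0.59), so the numbers were not taken to pair samples. With 2 libraries per group this check cannot exclude a pairing. The fits were tested on simulated counts. Depth is 59784425 to 136504590 gene-body fragments per library. The members, lists and alternatives were chosen with earlier results of these data known. Members are named throughout, with MYC in every comparison. Other members are given for most values at an unadjusted p under 0.05, not for all. Up to 2 list genes per direction with the farthest change among those called are named, plus those needed to describe a list. Of the 5 genes most like MYC, 2 are not reported here.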

Additional observations from a re-analysis of the deposited data

Results flagged for a closer look

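The intronic serum response of 3 members differed between cells labelled siPFDN5 and siControl cells by the test of the difference itself. For MXD3 the difference was 1.24 ± 0.39 (adjusted p 0.048), and it was lost without any 1 library other than the 2 of siPFDN2 before serum and replicate 2 of siControl after serum (adjusted p 0.076 to 0.20). Library-size scaling (1.16, adjusted p 0.080) and removing the GC trend (0.89, adjusted p 0.052) also ended the MXD3 call. The intronic count of MXD3 includes PRELID1 fragments outside MXD3's exons, and their part was not tested. For MXI1 the difference was -1.68 ± 0.35 (adjusted p 0.032). AL360182.2 fragments outside MXI1's exons enter this count, and their part was not tested. Leaving out replicate 1 of siControl after serum gave MXI1 -1.36 (adjusted p 0.15), and 7 of the other 11 libraries also ended the call when left out, at adjusted p 0.050 to 0.16. The 4 that did not were both of siPFDN2 before serum, replicate 2 of siPFDN5 before serum and replicate 2 of siControl after serum. For PVT1 the difference was -1.58 ± 0.46 (adjusted p 0.039), and without replicate 1 of siControl after serum it was -0.89. Leaving out 8 others, all but the 3 named for MXD3, also ended the call. The PVT1 call was also lost with the replicate block (-1.57, adjusted p 0.057). PVT1's intronic level was 677 and 303 CPM in siControl and 263 and 280 in those labelled siPFDN5, after serum. The PFDN5 level there was close to that in siControl, and the part of that in these differences was not tested.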

How the results depend on the processing

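With 2 libraries per group, a called difference rests on a spread pooled over 6 groups, and leaving out either library of siPFDN2 before serum raised most counts of calls. The averaged serum rises of MYC and MXD1 kept their direction and call in all 25 alternatives. Of the values recomputed for MYC, for members at an unadjusted p under 0.05 and for called genes, 1339 kept direction and side of the threshold, 209 lost and 152 gained the call, and 24 turned, and 17 of 26 further member values changed sign at least once. Scaling by library size alone moved the median of all genes by -0.20 to 0.01 on gene bodies and by -0.70 to 0.07 on introns, on the log2 scale, and low intronic counts of MNT and MXD4 limit precision. The replicate block, whose numbers were not taken to pair samples, left 2 members called in the averaged serum response and ended the MXD1 call in siPFDN2 cells. Where a value below moved, the cause was not tested.

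The count of members called moved by more than 1.5 times in these cases, from its value in the fit described. The share of all genes called also moved between the fits described above, so these counts say nothing particular to the members. In the siControl serum response, 0 became 3 with no filter, the GC trend removed, the replicate block and the GC trend removed, transcript estimates and the GC trend removed or exon counts and the GC trend removed, 1 with exon counts or transcript estimates, 2 with the compared libraries fitted alone or DESeq2 and 4 with transcript estimates without replicate 2 of siPFDN2 before serum or exon counts without that replicate 2, and 0 to 4 with 1 library left out. In the siPFDN2 serum response, 1 became 0 with upper-quartile scaling, the replicate block or the compared libraries fitted alone, 2 with no filter, the GC trend removed, the replicate block and the GC trend removed, DESeq2, transcript estimates and the GC trend removed or exon counts and the GC trend removed and 3 with transcript estimates without replicate 2 of siPFDN2 before serum or exon counts without that replicate 2, and 0 to 5 with 1 library left out. In the siPFDN5 serum response, 1 became 3 with no filter, DESeq2, transcript estimates and the GC trend removed or exon counts and the GC trend removed, 6 with the GC trend removed, 4 with the replicate block and the GC trend removed or transcript estimates without replicate 2 of siPFDN2 before serum, 7 with the compared libraries fitted alone and 5 with exon counts without that replicate 2, and 0 to 5 with 1 library left out. In the averaged serum response, 2 became 4 with no filter or exon counts without that replicate 2, 5 with the GC trend removed, the replicate block and the GC trend removed or transcript estimates without replicate 2 of siPFDN2 before serum and 6 with transcript estimates and the GC trend removed or exon counts and the GC trend removed, and 2 to 5 with 1 library left out. In siPFDN2 against siControl before serum, 0 became 1 with no filter, exon counts and the GC trend removed or transcript estimates without replicate 2 of siPFDN2 before serum and 2 with exon counts without that replicate 2, and 0 to 8 with 1 library left out. In siPFDN5 against siControl before serum, 0 became 1 with no filter, the GC trend removed, transcript estimates and the GC trend removed or exon counts and the GC trend removed, 4 with the compared libraries fitted alone and 2 with transcript estimates without replicate 2 of siPFDN2 before serum or exon counts without that replicate 2, and 0 to 1 with 1 library left out. In siPFDN2 against siControl after serum, 0 became 1 with transcript estimates without replicate 2 of siPFDN2 before serum and 2 with exon counts without that replicate 2. In siPFDN5 against siControl after serum, 0 became 3 with no filter, the GC trend removed, the replicate block and the GC trend removed, the compared libraries fitted alone or transcript estimates and the GC trend removed, 2 with DESeq2, 4 with exon counts and the GC trend removed or transcript estimates without replicate 2 of siPFDN2 before serum and 5 with exon counts without that replicate 2, and 0 to 3 with 1 library left out. In siPFDN5 against siPFDN2 before serum, 0 became 5 with no filter, 1 with DESeq2, exon counts and the GC trend removed or exon counts without that replicate 2 and 2 with transcript estimates without replicate 2 of siPFDN2 before serum, and 0 to 7 with 1 library left out. In siPFDN5 against siPFDN2 after serum, 0 became 5 with the compared libraries fitted alone and 2 with transcript estimates without replicate 2 of siPFDN2 before serum or exon counts without that replicate 2, and 0 to 1 with 1 library left out. In the siPFDN2 minus siControl difference of the serum response, 0 became 1 with no filter, and 0 to 5 with 1 library left out. In the siPFDN5 minus siControl difference of the serum response, 0 became 1 with no filter or DESeq2 and 3 with the compared libraries fitted alone, transcript estimates without replicate 2 of siPFDN2 before serum or exon counts without that replicate 2, and 0 to 3 with 1 library left out.

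The count of members with a called intronic change moved as follows. These counts too stand without the share of all genes and say nothing particular to the members. For the siControl serum response, 2 became 0 to 3 with 1 library left out. For the siPFDN2 serum response, 2 became 5 with library-size scaling, and 0 to 3 with 1 library left out. For the siPFDN5 serum response, 4 became 2 to 7 with 1 library left out. For siPFDN5 against siControl before serum, 0 became 2 with library-size scaling and 1 with the GC trend removed, and 0 to 1 with 1 library left out. For siPFDN2 against siControl after serum, 0 became 1 with library-size scaling, and 0 to 1 with 1 library left out. For siPFDN5 against siControl after serum, 1 became 2 with library-size scaling and 0 with the replicate block, and 0 to 5 with 1 library left out. For siPFDN5 against siPFDN2 before serum, 2 became 4 with library-size scaling and 1 with the GC trend removed, and 0 to 4 with 1 library left out. For the siPFDN5 minus siControl difference of the serum response, 3 became 0 to 6 with 1 library left out. Among the gene lists in the averaged serum response, the called count went for MYC cofactors from 1 to 5 with the GC trend removed and 3 without replicate 2 of siPFDN2 before serum, MYC protein turnover from 3 to 6 with the GC trend removed and 5 without replicate 2 of siPFDN2 before serum and MYC-induced genes from 8 to 18 with the GC trend removed and 24 without replicate 2 of siPFDN2 before serum.

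The sign of these log2 fold changes turned. In the siPFDN5 serum response, MXD3 went from 0.54 to -0.0036 with transcript estimates and the GC trend removed. PVT1 went from -0.95 to 0.090 with exon counts, 0.066 with exon counts and the GC trend removed and 0.098 with exon counts without that replicate 2. In siPFDN2 against siControl before serum, MYC went from 0.22 to -0.015 with transcript estimates without replicate 2 of siPFDN2 before serum and -0.027 with exon counts without that replicate 2, and -0.0087 to 0.40 with 1 library left out. In siPFDN2 against siControl after serum, MYC went from 0.030 to -0.091 with library-size scaling and -0.00065 with exon counts, and -0.16 to 0.32 with 1 library left out. In siPFDN5 against siControl after serum, MXD3 went from 0.47 to -0.019 with transcript estimates and -0.013 with transcript estimates without replicate 2 of siPFDN2 before serum. PVT1 went from -0.93 to 0.18 with exon counts and 0.19 with exon counts and the GC trend removed or exon counts without that replicate 2. In the siPFDN2 minus siControl difference of the serum response, MYC went from -0.19 to 0.011 with the GC trend removed, 0.018 with the replicate block and the GC trend removed, 0.062 with transcript estimates and the GC trend removed, 0.0031 with exon counts and the GC trend removed, 0.041 with transcript estimates without replicate 2 of siPFDN2 before serum and 0.032 with exon counts without that replicate 2, and -0.37 to 0.12 with 1 library left out.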
